A study of Mus musculus with 2 samples.

Results

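The 10 genes studied here encode amino acid transporters and were followed in total RNA of MEP, the megakaryocyte-erythroid progenitors of mouse bone marrow, whose descendants are red cells and megakaryocytes. They were chosen by name as Slc7a5, Slc3a2, Slc1a5, Slc1a4, Slc7a1, Slc7a6, Slc7a11, Slc38a1, Slc38a2 and Slc43a1. All 10 were found among the 43346 annotated genes of the tables, 21461 of which were protein-coding nuclear genes. The series held 1 group of 2 libraries, each made from 100 primary MEP of male C57BL/6J mice aged 5 to 6 weeks, with RNA over 200 bases kept and spike-in RNAs added. The libraries had separate biosample records and the same donor record, so their spread may be partly technical, and no comparison between conditions was possible. In such pooled cells, fewer expressing cells and less RNA per cell cannot be told apart.

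Amino acids cross the plasma membrane through carriers that differ in the side chains they accept and in what they exchange or cotransport. Most light chains of the SLC7 family reach the surface only when joined to the heavy chain that Slc3a2 encodes, and the pair exchanges large neutral, cationic or acidic amino acids. Sodium-coupled carriers such as those of Slc38a1, Slc38a2 and Slc1a5 load the cell with glutamine and other small neutral amino acids, which light-chain exchangers can then trade for leucine. Erythroid cells need amino acids for globin and glycine for heme, and leucine is read by the mTORC1 pathway that governs translation.

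Expected counts, the estimated reads per gene, totalled 51510347 for replicate 2 and 30016974 for replicate 1. Protein-coding nuclear genes took 25799923 of the first total and 13518448 of the second. All 8 erythroid and megakaryocyte progenitor markers reached 10 TPM in both libraries, and Gfi1b, a repressor needed in both lineages, was the highest at 146.5 ± 12.9 TPM (SD, n = 2). Markers of other cells differed between the libraries. The 8 neutrophil and monocyte markers summed to 6.39 TPM in replicate 2 and 1882 TPM in replicate 1, where S100a8 was the highest, and all 8 were more than 2-fold lower in replicate 2, with Ngp, Lcn2, Elane, Mpo and Ltf at 0 counts there. The 7 B cell markers summed to 126 TPM in replicate 2 and 7.14 TPM in replicate 1, with Igll1 the highest, and all 7 were more than 2-fold higher in replicate 2; Vpreb1 had 0 counts in replicate 1. The 5 T and NK cell markers, led by Nkg7, summed to 37.9 and 49.4 TPM in replicates 2 and 1, and the 5 mast cell and basophil markers, led by Cpa3, to 3.28 and 3.87 TPM, with Mcpt8, Fcer1a and Prss34 at 0 counts in both. The part of these other cells in any difference given here was not tested.

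The transporter genes fell into an abundant set and a scarce set. Of the 10, 7 reached 10 TPM in both libraries, where TPM is a length-corrected share of all transcripts. Among protein-coding nuclear genes, 24.7% did so. Slc7a6, Slc1a4 and Slc7a11 stayed under 2 TPM in both. Their means exceeded those of 54.9%, 53.8% and 45.7% of protein-coding nuclear genes, so scarce here means low beside the other 7. The median over the 10 members was 18.6 TPM for the mean of both libraries, 20.5 TPM in replicate 2 and 16.6 TPM in replicate 1, beside 0.445, 0.36 and 0.38 TPM over all protein-coding nuclear genes. The 10 genes summed to 243 TPM in replicate 2 and 193 TPM in replicate 1.

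**Figure D1:**
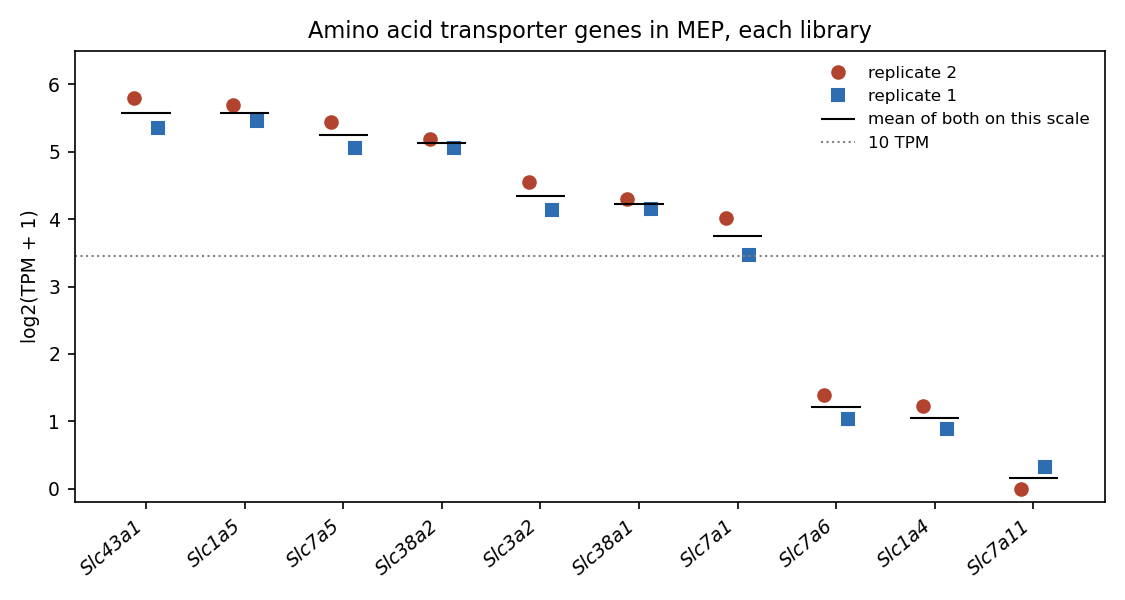
Level of each transporter gene on a log2(TPM + 1) axis, with circles for replicate 2, squares for replicate 1, a line at the mean of both on that scale and a dotted line at 10 TPM. Slc43a1, Slc1a5, Slc7a5, Slc38a2, Slc3a2, Slc38a1 and Slc7a1 lie on or above the dotted line in both libraries, and Slc7a6, Slc1a4 and Slc7a11 lie far below it.

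Among the heteromeric carriers, Slc7a5 supplied most of the light-chain RNA. Slc7a5 (ENSMUSG00000040010.10, mm10 chromosome 8, 121881150 to 121907694, minus strand) encodes LAT1, the exchanger of leucine and other large neutral amino acids. It had 42.36 TPM in replicate 2 and 32.36 TPM in replicate 1, a mean of 37.4 ± 7.07 TPM (SD, n = 2). That mean exceeded the level of 91.3% of protein-coding nuclear genes. Its partner Slc3a2 (ENSMUSG00000010095.9, chromosome 19, 8706882 to 8723369, minus strand) encodes the heavy chain 4F2hc, also called CD98. It had 22.36 TPM in replicate 2 and 16.55 TPM in replicate 1, a mean of 19.5 ± 4.11 TPM (SD, n = 2). Slc7a5 RNA thus stood at 1.89 times Slc3a2 RNA in replicate 2 and 1.96 times in replicate 1, so the light chain was above the heavy chain in both libraries.

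The scarce light chains were Slc7a6 and Slc7a11. Slc7a6 (ENSMUSG00000031904.4, chromosome 8, 106168857 to 106198706, plus strand) encodes y+LAT2, which exports arginine in exchange for neutral amino acids and sodium. It had 1.61 TPM in replicate 2 and 1.05 TPM in replicate 1, from 222 and 83 expected counts, a mean of 1.33 ± 0.396 TPM (SD, n = 2). Slc7a5 was therefore 26.3 times as high in replicate 2 and 30.8 times as high in replicate 1. Slc7a11 (ENSMUSG00000027737.6, chromosome 3, 49892526 to 50443614, minus strand) encodes xCT, which takes up cystine in exchange for glutamate. It had 0 counts in replicate 2, where 3 counts, the limit that a count of 0 allows, equal 0.0227 TPM at the gene length of 3592 bases deposited for that library, and 14 counts or 0.25 TPM in replicate 1, at 2677 bases. Both libraries thus held little or none of it, and no fold is given, since the counts are few and the lengths differ. Over the 6 light chains known to join 4F2hc (Slc7a5, Slc7a6, Slc7a7, Slc7a8, Slc7a10 and Slc7a11), levels summed to 47.4 TPM in replicate 2 and 38.3 TPM in replicate 1. Slc7a5 made up 89.3% and 84.6% of those sums, which were 2.12 and 2.31 times the Slc3a2 level.

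The leucine carrier that needs no heavy chain was the other abundant route for large neutral amino acids. Slc43a1 (ENSMUSG00000027075.12, chromosome 2, 84838850 to 84863594, plus strand) encodes LAT3, a facilitative carrier of leucine, isoleucine, valine and phenylalanine that is known in developing red cells. It had 54.83 TPM in replicate 2 and 39.88 TPM in replicate 1, a mean of 47.4 ± 10.6 TPM (SD, n = 2). That was the highest mean of the 10 genes and above 93.4% of protein-coding nuclear genes. Slc43a1 was 1.29 times Slc7a5 in replicate 2 and 1.23 times in replicate 1.

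The neutral amino acid carriers of the SLC1 family stood far apart in the order. Slc1a5 (ENSMUSG00000001918.13, chromosome 7, 16781340 to 16798274, plus strand) encodes ASCT2, which exchanges glutamine, serine, alanine and other neutral amino acids with sodium. It had 50.59 TPM in replicate 2 and 43.05 TPM in replicate 1, a mean of 46.8 ± 5.33 TPM (SD, n = 2). Slc1a4 (ENSMUSG00000020142.8, chromosome 11, 20302180 to 20332713, minus strand) encodes ASCT1, which carries alanine, serine, cysteine and threonine. It had 1.34 TPM in replicate 2 and 0.84 TPM in replicate 1, from 195 and 69 expected counts, a mean of 1.09 ± 0.354 TPM (SD, n = 2). Slc1a5 was 37.8 times as high as Slc1a4 in replicate 2 and 51.2 times in replicate 1.

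Both sodium-coupled SLC38 members were expressed. Slc38a2 (ENSMUSG00000022462.6, chromosome 15, 96687392 to 96699730, minus strand) encodes SNAT2, a carrier of small neutral amino acids known to be induced by amino acid shortage. It had 35.56 TPM in replicate 2 and 32.28 TPM in replicate 1, a mean of 33.9 ± 2.32 TPM (SD, n = 2). Slc38a1 (ENSMUSG00000023169.10, chromosome 15, 96571418 to 96642913, minus strand), its neighbour on the chromosome, encodes the glutamine carrier SNAT1. It had 18.73 TPM in replicate 2 and 16.75 TPM in replicate 1, a mean of 17.7 ± 1.40 TPM (SD, n = 2). The ratio of Slc38a2 to Slc38a1 was 1.90 in replicate 2 and 1.93 in replicate 1, so it barely moved between libraries. Cationic amino acids are the substrate of the remaining member, Slc7a1 (ENSMUSG00000041313.10, chromosome 5, 148327410 to 148399904, minus strand), which encodes CAT1, a carrier of arginine and lysine that needs no heavy chain. It had 15.26 TPM in replicate 2 and 10.11 TPM in replicate 1, a mean of 12.7 ± 3.64 TPM (SD, n = 2).

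By mean TPM the order ran Slc43a1, Slc1a5, Slc7a5, Slc38a2, Slc3a2, Slc38a1, Slc7a1, Slc7a6, Slc1a4 and Slc7a11. The values of neighbours overlapped between the libraries for 4 pairs: Slc43a1 with Slc1a5, Slc7a5 with Slc38a2, Slc3a2 with Slc38a1, and Slc7a6 with Slc1a4. Within a library, Slc7a5 was 1.19 times Slc38a2 in replicate 2 and 1.00 times in replicate 1. Likewise, Slc7a6 was 1.20 times Slc1a4 in replicate 2 and 1.25 times in replicate 1, so these 2 pairs kept their order. Slc43a1 and Slc1a5 changed places between the libraries, as did Slc3a2 and Slc38a1. The largest step among the genes with counts in both libraries lay between Slc7a1 and Slc7a6, where the mean of Slc7a1 was 9.54 times as high.

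Differences between the libraries were modest. Of the 10 genes, 9 had a higher TPM in replicate 2, as did 67.3% of the 9982 protein-coding nuclear genes with a mean of at least 1 TPM. On the log2(TPM + 1) scale, replicate 2 minus replicate 1, the median over those genes was 0.18, and this shift was subtracted from each gene. None of the 9 members in that set differed by 2-fold or more: 0 were higher in replicate 2, beside 3.16% of all such genes, and 0 were lower, beside 3.48%. The largest remaining difference was that of Slc7a1, 0.37, followed by Slc43a1 at 0.27, Slc3a2 at 0.23 and Slc7a5 at 0.20, while Slc1a5 at 0.05, Slc38a1 at -0.03 and Slc38a2 at -0.04 lay nearest the shift. Over all such genes the SD of the difference was 0.58, and over the 4333 with mean counts of 1000 to 10000, which include 7 of the members, it was 0.41. Each of the 9 differences was therefore smaller than the spread of single genes between these libraries.

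**Figure D2:**
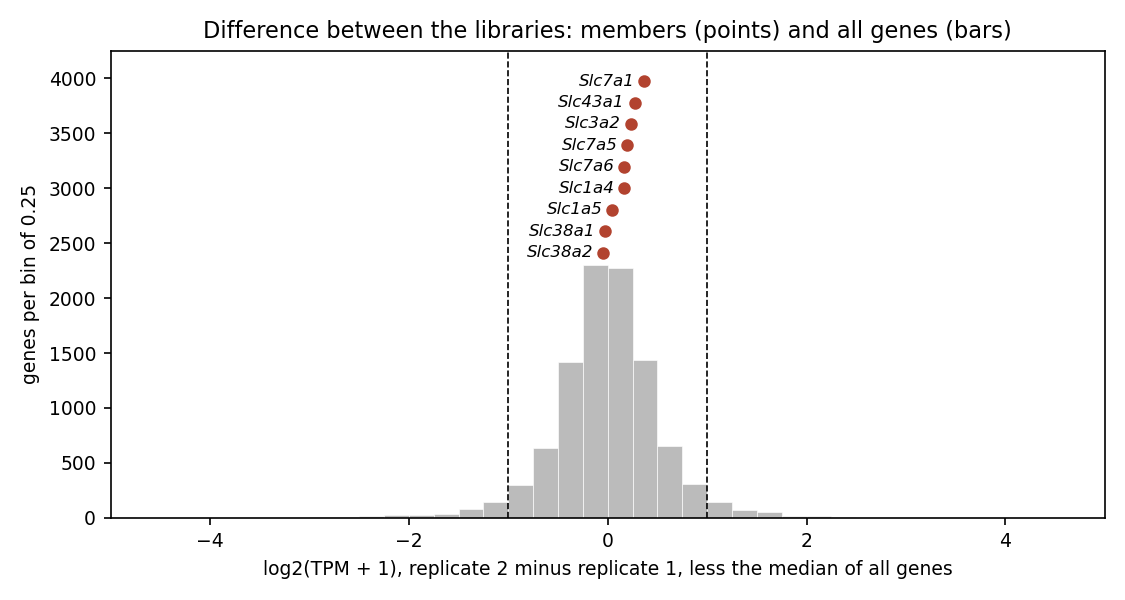
Difference of log2(TPM + 1), replicate 2 minus replicate 1, less the median of 0.18. Bars count all 9982 genes in bins of 0.25, with values beyond 5 placed in the end bins, points mark the 9 members compared (their height only separates them), and dashed lines mark 2-fold. All 9 points lie between the dashed lines, from -0.04 for Slc38a2 to 0.37 for Slc7a1.

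The differences of the abundant genes in raw TPM exceeded their counting error. Such raw ratios include the median shift of 0.18, so an interval above 1 does not by itself set a gene apart from other genes. The TPM ratio of replicate 2 to replicate 1, with an exact Clopper-Pearson 95% interval that covers counting error only, was 1.51 (1.42 to 1.60) for Slc7a1 and 1.38 (1.31 to 1.45) for Slc43a1. It was 1.35 (1.25 to 1.46) for Slc3a2 and 1.31 (1.24 to 1.38) for Slc7a5. The scarce genes had wide intervals, 1.53 (1.19 to 2.00) for Slc7a6 and 1.60 (1.21 to 2.13) for Slc1a4. The ratio was 1.18 (1.11 to 1.24) for Slc1a5, 1.12 (1.07 to 1.17) for Slc38a1 and 1.10 (1.06 to 1.15) for Slc38a2. These sodium-coupled carriers were thus the closest between libraries on the TPM scale. On the scale of CPM, counts scaled to library size without length correction, that held for Slc38a1 and Slc38a2 only: there the log2 difference less the shift was -0.03 and -0.05 for these, 0.33 for Slc1a5, 0.39 for Slc7a5 and 0.07 for Slc7a1.

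At the level of transcripts, Slc1a5 stood apart from the other members. Of the 6 members that reached 5 TPM in both libraries and have more than 1 transcript, 5 had the same main transcript in both, beside 73.6% of the 5453 genes under the same rule; the exception was Slc38a1. Slc1a5 was the 1 member of 6 whose main transcript was not labelled protein-coding in both libraries, beside 9.99% of those genes. That transcript, Slc1a5-202, is labelled as retaining an intron and held 65.0% of the gene's TPM in replicate 2 and 66.3% in replicate 1. The protein-coding Slc1a5-201 was at 10.84 TPM in replicate 2, 21.4% of the gene, and at 0 TPM in replicate 1. The share of Slc1a5 on transcripts not labelled protein-coding exceeded that of 98.7% of the 5453 genes, whose median share was 15.8% in replicate 2 and 16.2% in replicate 1.

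The retained intron is printed because Slc1a5-202 keeps it and Slc1a5-201 does not. It is the intron numbered 7 of 8, chr7:16795953-16796023 (mm10, plus strand), 71 bases long, and is shown in capitals between 15 bases of exon on each side. It begins with GT and ends with AG, and its length is not a multiple of 3. Read from the annotated start codon, Slc1a5-202 runs for 432 codons and then meets TGA at the second base of this intron, whereas Slc1a5-201 holds 555 codons.
Slc1a5 retained intron: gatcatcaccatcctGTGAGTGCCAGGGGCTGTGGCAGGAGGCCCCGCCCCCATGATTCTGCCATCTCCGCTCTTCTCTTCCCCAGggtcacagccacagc
The transcript estimates divide reads that these overlapping transcripts share, so the split within Slc1a5 is less certain than the total. By these estimates the total over every transcript, 50.59 and 43.05 TPM in replicates 2 and 1, exceeded the level of the annotated coding message. The size of that excess is as uncertain as the split.

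**Figure D3:**
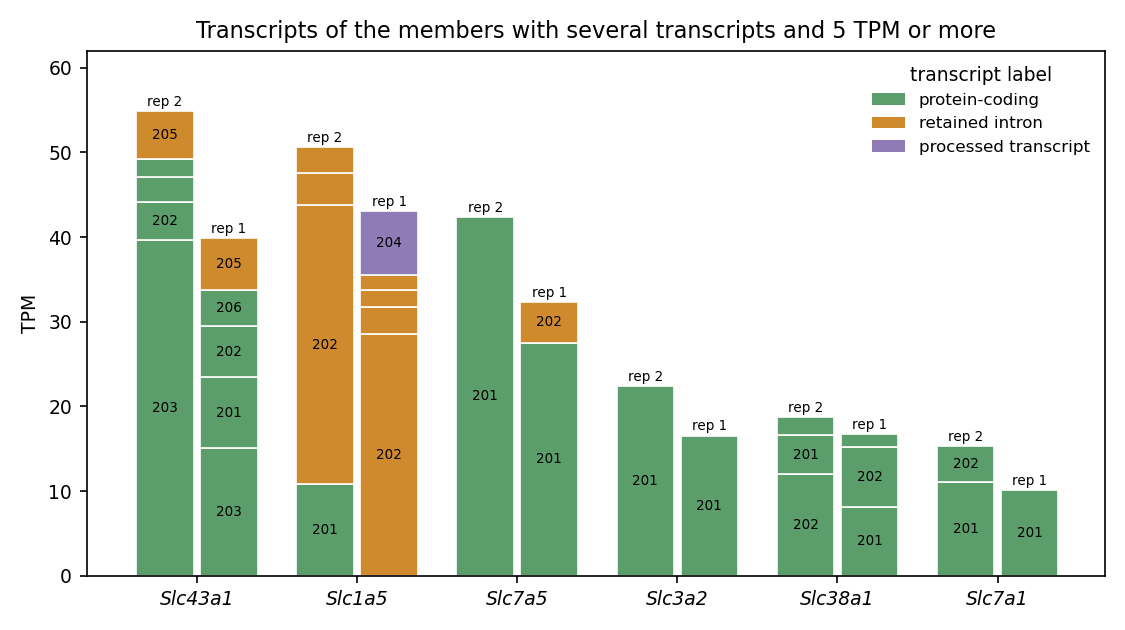
TPM of each transcript, stacked, for the 6 members with several transcripts and at least 5 TPM, with replicate 2 left of replicate 1; colours give the transcript label and numbers the transcript (those over 4 TPM). Slc1a5 is mostly retained-intron transcript in both libraries, Slc43a1 is mainly transcript 203 in replicate 2 and spread over 5 transcripts in replicate 1, and Slc3a2 is transcript 201 alone.

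By the transcript estimates, Slc43a1 and Slc38a1 were spread over several first exons. These splits divide shared reads, as for Slc1a5, and reads on the first exons themselves were not examined. Slc43a1-203 held 72.4% of the Slc43a1 TPM in replicate 2 and 37.8% in replicate 1. Slc43a1-201, which begins upstream and is annotated with 1821 coding bases against 1770, held 3.88% in replicate 2 and 20.98% in replicate 1. The main transcript was the same, but the minor ones took a larger share in replicate 1. For Slc38a1, Slc38a1-202 held 64.0% in replicate 2 and 42.5% in replicate 1, and Slc38a1-201 held 24.8% and 48.6%. Both encode the same 1455 coding bases from different first exons, so the main transcript differed between libraries without a difference in annotated coding length.

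Among the transcripts quantified, the other members were simpler. Slc3a2-201 held 100% of Slc3a2 in both libraries, and Slc7a5-201 held 100% of Slc7a5 in replicate 2 and 85.0% in replicate 1, the rest being the short retained-intron transcript. Slc7a1-201 held 72.8% of Slc7a1 in replicate 2 and 100% in replicate 1, and Slc7a1-202 held 27.2% and 0%. Slc7a1-202 is annotated with 1628 coding bases, not a multiple of 3, in place of 1866. Its length-corrected share in replicate 2 rested on 260 of 3271 expected counts. Slc38a2 and Slc7a6 had 1 quantified transcript each, so their shares were fixed. GENCODE M21, the source of the transcript labels, lists more transcripts than were quantified for 4 of these members. It has 9 against 2 for Slc3a2, 6 against 3 for Slc7a1, 7 against 1 for Slc7a6 and 2 against 1 for Slc38a2. Slc1a4 was assigned wholly to Slc1a4-202 in replicate 2 and wholly to Slc1a4-201 in replicate 1, but the ends of these differ by only 29 bases at the 5′ side and 25 at the 3′ side. The posterior shares of Slc1a4-202 were less extreme, 79.6% in replicate 2 and 31.7% in replicate 1. All 14 counts of Slc7a11, those of replicate 1, lay on Slc7a11-204, a single-exon transcript that spans the first exon and adjoining intron, and both of its protein-coding transcripts had 0 counts in both libraries.

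Several of these genes are known targets of ATF4, the factor that cells induce when amino acids run short and that binds amino acid response elements. Promoter windows of 300 bases, from 250 before to 50 after the start (RefSeq, GRCm38.p6), existed for 7 of the 10 members, the others being Slc7a5, Slc1a5 and Slc38a1. The core TGATGNAA, searched on both strands, was found in 2 of the 7 members, Slc7a11 and Slc1a4, and in 4.51% of the 27025 genes with such a window (3.97% of 32851 windows). The E-box CACGTG, a palindrome, was found in 1 of the 7, Slc43a1, and in 8.09% of genes (7.15% of windows). That window of Slc43a1 began at base 84840073 and ended before the start of its main transcript, Slc43a1-203, at 84840625. Slc7a11 and Slc1a4 had the lowest means of the 10, while Slc7a6, the next lowest, held no match, and a match does not say whether a factor was bound. The promoters of Slc7a11 (chr3:50443604-50443813, minus strand) and Slc1a4 (chr11:20332704-20332913, minus strand) are printed with the core in capitals, and that of Slc38a2 (chr15:96699719-96699928, minus strand), an abundant member with no match in this window, for comparison. Each runs from 200 bases before to 10 after the start.
Slc7a11: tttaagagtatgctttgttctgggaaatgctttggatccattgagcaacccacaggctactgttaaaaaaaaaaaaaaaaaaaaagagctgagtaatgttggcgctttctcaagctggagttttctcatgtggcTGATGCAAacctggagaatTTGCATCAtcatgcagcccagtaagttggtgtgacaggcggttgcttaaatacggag
Slc1a4: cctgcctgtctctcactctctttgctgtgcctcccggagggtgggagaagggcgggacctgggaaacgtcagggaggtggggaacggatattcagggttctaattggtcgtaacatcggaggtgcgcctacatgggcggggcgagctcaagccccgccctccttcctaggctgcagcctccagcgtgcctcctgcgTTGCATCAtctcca
Slc38a2: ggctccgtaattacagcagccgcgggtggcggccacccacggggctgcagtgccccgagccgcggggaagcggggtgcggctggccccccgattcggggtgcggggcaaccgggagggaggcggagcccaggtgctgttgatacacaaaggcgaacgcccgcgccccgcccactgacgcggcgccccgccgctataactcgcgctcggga
Slc7a11 held the core on both strands, at -66 to -59 and, reversed, at -47 to -40, and Slc1a4 held it reversed, at -4 to 4, across its start.

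Genes listed for the response to amino acid shortage, the kinase gene Eif2ak4 among them, varied widely in level. The list also counts Eif2ak1, the gene of the heme-regulated kinase HRI. Of the 15 genes listed, 9 reached 10 TPM in both libraries, beside the 24.7% of protein-coding nuclear genes. The median gene had 21.3 TPM (replicate 2) or 16.8 TPM (replicate 1). Asns, asparagine synthetase, was the highest at 105 ± 5.46 TPM (SD, n = 2), and Eif4ebp1, the translation repressor under mTORC1, had 74.1 ± 3.48 TPM. Atf4 RNA itself had 87.74 TPM in replicate 2, against 58.78 TPM in replicate 1, and Shmt2, mitochondrial serine hydroxymethyltransferase, had 56.3 ± 12.0 TPM. Of all 21461 protein-coding nuclear genes, 9982 had a mean of at least 1 TPM. Of the 15 response genes, 4 were under 1 TPM in both libraries. Chac1, which degrades glutathione, had 0 counts in both, and the pseudokinase gene Trib3 had 0.49 TPM in replicate 2, against 0 TPM in replicate 1. The lipoprotein receptor gene Vldlr had 0 and 0.02 TPM in replicates 2 and 1, and the transcription factor gene Cebpb 0.39 and 0.6 TPM. None of the 11 response genes with a mean of at least 1 TPM differed by 2-fold between the libraries beyond the shift. Of all 9982 protein-coding nuclear genes at that mean, 6.63% did.

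Relatives of the 10 genes spanned a wide range of levels. Of 27 other members of the same families, 3 reached 10 TPM in both libraries, beside the 24.7% of protein-coding nuclear genes. Of the same 27, 18 were under 1 TPM in both and 11 had 0 counts in both. Low levels were common among all genes, since 9982 of 21461 protein-coding nuclear genes had a mean of at least 1 TPM. The share of all genes at 0 counts was not computed. The median gene of the 27 had 0.02 TPM (replicate 2) or 0 TPM (replicate 1). The 4 highest were Slc43a3, known as a purine nucleobase carrier, at 56.6 ± 10.9 TPM (SD, n = 2), the glutamine carrier Slc38a5 at 47.1 ± 9.19 TPM, Slc38a10 at 22.8 ± 0.912 TPM and the lysosomal arginine sensor Slc38a9, with 11.0 TPM in replicate 2, against 9.07 TPM in replicate 1. Slc43a3 and Slc38a5 were thus at about the level of Slc43a1 and Slc1a5. Of 20 other plasma membrane and organelle carriers, 4 reached 10 TPM in both, beside the same 24.7%. The median gene had 3.20 TPM (replicate 2) or 2.19 TPM (replicate 1). The mitochondrial glycine carrier of heme synthesis, Slc25a38, led them at 39.2 ± 8.20 TPM. It was followed by the glutamate carrier Slc25a22 at 16.2 ± 7.61 TPM, the aspartate-glutamate carrier Slc25a12 at 15.1 ± 3.55 TPM and the aromatic amino acid carrier Slc16a10 at 13.8 ± 2.13 TPM.

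Genes that sense imported amino acids and that use cysteine were measured beside them. Of 26 genes of amino acid sensing upstream of mTORC1, 15 reached 10 TPM in both libraries, beside the 24.7% of protein-coding nuclear genes. The median gene had 13.3 TPM (replicate 2) or 12.7 TPM (replicate 1). The highest were the GATOR2 components Sec13, at 59.6 ± 9.21 TPM (SD, n = 2), and Seh1l, at 27.3 ± 1.29 TPM, and the Ragulator subunits Lamtor5, at 41.7 ± 4.08 TPM, and Lamtor3, at 27.2 ± 0.431 TPM. Rragd, one of the Rag GTPases, had 0 counts in both libraries, and the arginine sensor Castor1 had 0.59 TPM in replicate 2 and 0 TPM in replicate 1. Of 10 genes of glutathione synthesis and use, 6 reached 10 TPM in both libraries, beside the same 24.7%. The median gene had 32.2 TPM (replicate 2) or 28.3 TPM (replicate 1). The peroxidases Gpx1 and Gpx4 stood at 809 ± 61.9 and 288 ± 10.9 TPM, the methionine adenosyltransferase gene Mat2a at 135 ± 24.0 TPM, and Gclm, the modifier subunit of the enzyme that joins glutamate to cysteine, at 106 ± 16.6 TPM. Cbs, the first enzyme that converts homocysteine towards cysteine, had 0 counts in replicate 2 and 1 count in replicate 1. Gclm RNA was thus abundant where Slc7a11, the cystine carrier, had at most 14 counts.

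**Figure D4:**
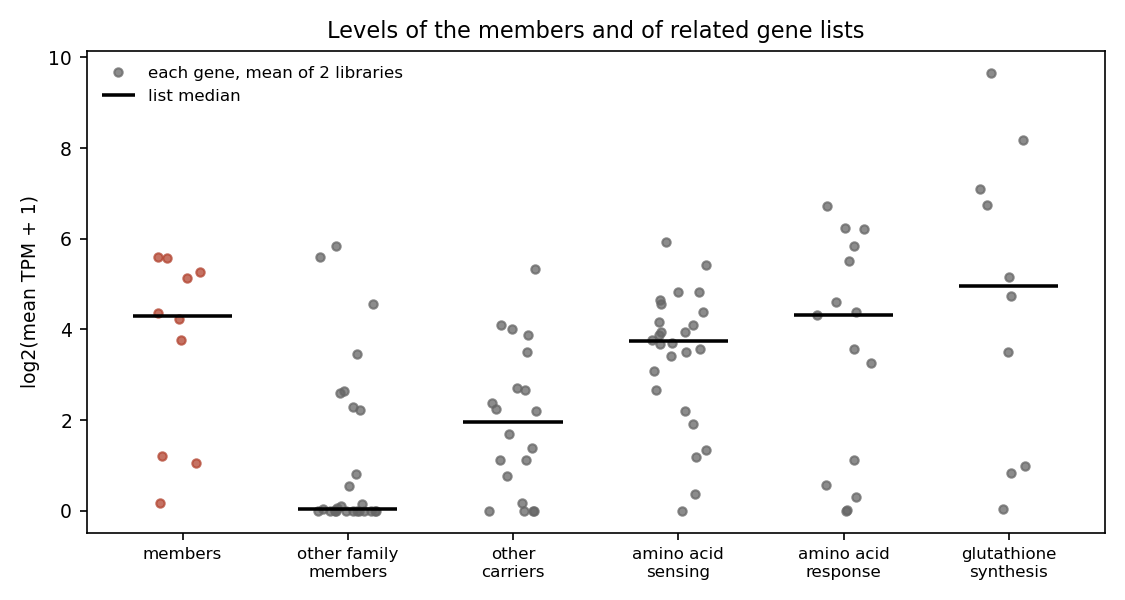
Mean TPM of both libraries on a log2(mean TPM + 1) axis for the 10 members and the genes of 5 related lists, with 1 point per gene and a line at each list's median. The members' median of 18.6 TPM lies above that of the other family members, 0.025 TPM (0.47 TPM with posterior means), and near that of the response genes, 19.1 TPM.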

How the data were processed

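Total RNA-seq of 2 MEP libraries was deposited as gene and transcript tables on mm10 with GENCODE M4, per the file headers and notes beside them; the sources used here name no aligner or quantifier, and do not say whether counting used strand. The deposited expected counts are the authors' estimates of reads and need not be whole; they were rounded for intervals. Deposited TPM corrects for effective length and sums to 1 constant over all features, so the authors' inclusion of ribosomal RNA lowers the value of every other gene. The deposited percent of a gene's TPM on each transcript is the authors' own. The deposited signal columns, the authors' lower and upper TPM bounds, were read but support no result. Both samples fell in 1 group by their cell type label. The libraries differed by more than sampling noise (chi-square divided by its degrees of freedom, 62.8, from 11453 genes).

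Names, coordinates and transcript labels came from GENCODE M21 on the same assembly, and 42462 of 43346 genes matched by identifier. Some transcript models differ in length from those deposited. Slc3a2-201 has 2572 bases as deposited and 1819 in M21, and Slc38a1-203 has 7752 and 3183. Deposited TPM rests on the deposited lengths, while exons and coding bases are those of M21. No member shared exon sequence with another annotated gene, though the spans of Slc7a5 and Slc7a11 overlap those of 6 other genes. Libraries were compared on log2(TPM + 1), replicate 2 minus replicate 1, which understates the change of low genes. No p-value was computed, since 1 group leaves nothing to test. Counting error alone enters the intervals and the limit of 3 counts. All members were named, as were the 4 highest genes of each list and, in lists with a median over 10 TPM, those under 1 TPM in both libraries; transcripts were named at 20% or more, with the highest of each member. Members and lists were chosen with earlier results of these data known. Alternatives were posterior mean TPM, TPM rescaled over protein-coding nuclear genes, CPM with TMM factors (edgeR 4.0.16) or DESeq2 1.42.0 size factors in R 4.3.3, other minimums and pseudocounts, and each library alone. The remaining work was done in Python 3.11.15 with pandas 2.3.3, scipy 1.17.1, matplotlib 3.10.9 and numpy 2.4.6.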

Additional observations from a re-analysis of the deposited data

How the results depend on the processing

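Over the members, the median of mean TPM was 18.6, and 17.9 with posterior means. It was 43.3 TPM when TPM was rescaled over protein-coding nuclear genes, since ribosomal and other RNA then leaves the sum, and 66.2 CPM with TMM factors, a unit with no length correction. Each library alone gave 16.6 to 20.5 TPM. The count of members at 10 TPM in both libraries was 7, and also 7 with rescaled TPM, with CPM and in either library alone. It was 6 with posterior means, 8 at a minimum of 1 TPM and 0 at 50 TPM. All 10 members kept their rank with posterior means and with rescaled TPM; with CPM, which favours long transcripts, 4 did. No compared member passed 2-fold under any of the 6 alternatives. The call counts over all genes moved: 315 higher and 347 lower became 499 and 516 with a pseudocount of 0.1, 514 and 246 when the shift of 0.18 was not subtracted, and 597 and 333 without the filter on mean TPM. With CPM and TMM factors the difference of Slc1a5 was 0.33 in place of 0.05, that of Slc7a5 0.39 in place of 0.20 and that of Slc7a1 0.07 in place of 0.37; the deposited length of these genes differs between the libraries with the transcript split, and its part was not tested. The main transcript was the same for 5 members with posterior shares and with shares of counts, and for 4 among protein-coding transcripts alone. Of the single-gene, single-list and transcript values recomputed under an alternative, 102 kept their side or moved by less than their spread. Another 62 moved further. A change of sign was counted only for differences past 2-fold, and 1 was found. Slc38a6, at 1.17 in TPM, was at -0.059 in CPM, an alternative chosen after seeing the data. Small differences among the 62 also changed sign. Without subtraction of the shift, and likewise without the filter, Slc38a1 went from -0.03 to 0.15 and Slc38a2 from -0.04 to 0.14. The median of the other family members was 0.025 TPM, 0.47 TPM with posterior means, 0.0549 TPM when rescaled, 5.2 TPM over genes at 1 TPM in either library, and 0.02 TPM in replicate 2 alone, against 0 TPM in replicate 1 alone. Depth limits Slc7a6, Slc1a4 and Slc7a11, and 2 libraries give no measure of variation between mice. No paired analysis was possible because the series has 1 group.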

Other observations

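Of the 64 related genes with a mean of at least 1 TPM, 3, or 4.69%, differed by 2-fold or more between the libraries beyond the shift, beside 6.63% of all 9982 genes. These 3 are named here after their values were seen. Slc38a6, an SLC38 relative, had 5.76 TPM in replicate 2 and 1.65 TPM in replicate 1, from 132 and 70 expected counts; scaled to library size without length correction these counts gave 2.39 and 2.50 CPM, so its difference was seen in TPM only. Slc6a9, the plasma membrane glycine carrier GlyT1 that developing red cells use for heme, had 0.32 TPM in replicate 2 and 2.03 TPM in replicate 1, from 24 and 62 counts, or 0.434 and 2.22 CPM. Castor2, a relative of the arginine sensor Castor1, had 0.14 TPM in replicate 2 and 2.43 TPM in replicate 1, from 40 and 128 counts, or 0.724 and 4.58 CPM. Slc6a9 and Castor2 were more than 2-fold lower in replicate 2 on both scales.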
